A study of Caenorhabditis elegans with 40 samples.

Results

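The genes described here are the respiratory chain genes that Caenorhabditis elegans carries in its mitochondrial DNA, chosen by symbol and not by any measured value. The choice named 10 genes, and 8 of them had a row in both deposited count tables, out of 9532 genes in the RNA-seq table and 20189 in the ribosome profiling (Ribo-seq) table. The 8 were ctc-1, ctc-2, ctc-3, ctb-1, nduo-2, nduo-4, nduo-6 and atp-6, while nduo-1 and nduo-5 were not analysed here. Another 2 mitochondrially encoded genes with rows, nduo-3 and ndfl-4, are given beside them where they help.

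The study asked how the loss of 1 copy of a ribosomal protein gene changes RNA levels and ribosome occupancy in whole animals. The mutants were rpl-33(0)/mc6, rpl-5(0)/mc6, rps-10(0)/tmc20 and rps-23(0)/tmc5, each with a null allele on one chromosome and, on the other, a balancer, which is a rearrangement that blocks recombination so that the heterozygote can be maintained. The same culture temperature is recorded for all groups, mutants and controls alike. All mutants were collected at 4 days, at the L4 larval stage where the labels give one, and the controls were wild-type/mc6, wild-type/tmc20 and wild-type/tmc5 animals collected at 4 days (pregravid adults, apart from 1 tmc20 and 1 tmc5 RNA library labelled L4) and at 3 days (L4). Controls therefore carried the same balancer as their mutant, so a change that a balancer itself makes is shared by both sides of each mutant comparison.

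The RNA table held 17 distinct libraries. The columns of rpl-33(0) and rpl-5(0) were identical, so these libraries were used once and are called the rpl pair, and neither mutant can be read apart from the other at the RNA level. The second tmc20 control column appeared unchanged under both day 3 and day 4, and it entered the mutant comparisons but no day contrast. RNA libraries held 1017787 to 2384186 counts and the 20 Ribo-seq libraries only 1081 to 9637. The methods speak of independent biological replicates, but the labels do not tie the libraries to cultures and some columns are copies, so p-values measure the spread between these libraries, which may be partly technical.

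Mitochondria keep a small circular genome that codes for core membrane subunits of the respiratory chain, for the RNAs of their own ribosomes and for transfer RNAs. All other subunits, including the proteins of the mitochondrial ribosome, are made from nuclear genes in the cytosol and imported. Each complex that holds one of the members is therefore built from both sources. The ctc genes code for the catalytic core of cytochrome c oxidase (complex IV), ctb-1 for cytochrome b of complex III, the nduo genes for membrane subunits of NADH dehydrogenase (complex I), and atp-6 for the proton channel subunit of ATP synthase.

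In the WBcel235 annotation the genome (MtDNA) is 13794 bases long with 12 protein-coding, 2 rRNA and 22 tRNA genes. All 10 genes with rows lay on the plus strand as a single exon. The members ran along it in the order nduo-6 (ending at base 549), atp-6 (MtDNA:2634-3235), nduo-2 (MtDNA:3389-4269), ctb-1 (MtDNA:4504-5621), ctc-3 (MtDNA:5678-6449), nduo-4 (MtDNA:6506-7808), ctc-1 (MtDNA:7827-9428) and ctc-2 (MtDNA:9649-10348). Neighbouring annotations were packed end to end, with overlaps of 0 to 28 bases, so reads at gene ends could be assigned to either neighbour. The coding sequences differed in base composition, and this difference returns in the mutant comparison below: A and T made up 70.3% of ctc-1 and 71.9% of ctc-3, against 80.1% of nduo-2 and 79.9% of nduo-6. The first 30 bases of each member's coding sequence are shown to identify the measured transcripts, with the start codon in capitals, read 5′ to 3′ on the plus strand of the RefSeq WBcel235 mitochondrial sequence.
ctc-1: ATTaatctttataaaaaatatcaaggagga
ctc-2: ATTaataatttttttcaaggatataattta
ctc-3: ATAtttcataattttcatattttaagactt
ctb-1: TTGaaaattaataatagattattaaatttt
nduo-2: TTGattgtttttatttctttatttaccttg
nduo-4: TTGttagaatttctttttatctccttatta
nduo-6: ATAgtaaaagtgttttttgttttagctgtt
atp-6: ATTaatcaagtttattttttagacattttt
None of the 8 opened with ATG. ATT opened 3 of them, TTG 3 and ATA 2.

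The 8 genes together took 0.720% ± 0.127 of RNA counts in the controls (SD, n = 11). Per length of transcript they spanned a wide range. In the controls ctc-3 averaged 3153 ± 575 CPM (reads scaled for library depth) per kilobase, ctc-1 1288 ± 258, atp-6 874 ± 187, ctc-2 839 ± 183 and ctb-1 679 ± 121 (SD, n = 11 libraries each, library sizes scaled by TMM). The complex I genes were lower on the same scale, at 282 ± 57.8 for nduo-4, 169 ± 59.2 for nduo-6 and 160 ± 29.04 for nduo-2. The order held in 17 of 17 libraries between ctc-3 and ctc-1, ctc-1 and atp-6, ctc-2 and ctb-1, and ctb-1 and nduo-4. It did not hold between atp-6 and ctc-2 (atp-6 higher in 10 of 17) or between nduo-6 and nduo-2 (nduo-6 higher in 8 of 17), whose levels differed by less than their spread.

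Across the 17 libraries the members moved mostly together. The correlation of log2 CPM between pairs of members reached r = 0.94 for ctc-2 and ctb-1 and was lowest, r = -0.01, for ctc-3 and nduo-6 (28 pairs, given as a description, since all points share library size and preparation). ctc-2 followed the mean of the other members most closely (r = 0.96) and nduo-6 least (r = 0.33, or 0.65 without the rpl pair). The genes most like the mean of the members over the 17 libraries, of 7461 compared, were rps-13, a protein of the small cytosolic ribosomal subunit (r = 0.89), nuo-6, a complex I subunit (r = 0.88), cox-5B, a complex IV subunit (r = 0.88), F23H11.5 (r = 0.88) and ZK1320.3 (r = 0.88).

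**Figure D1:**
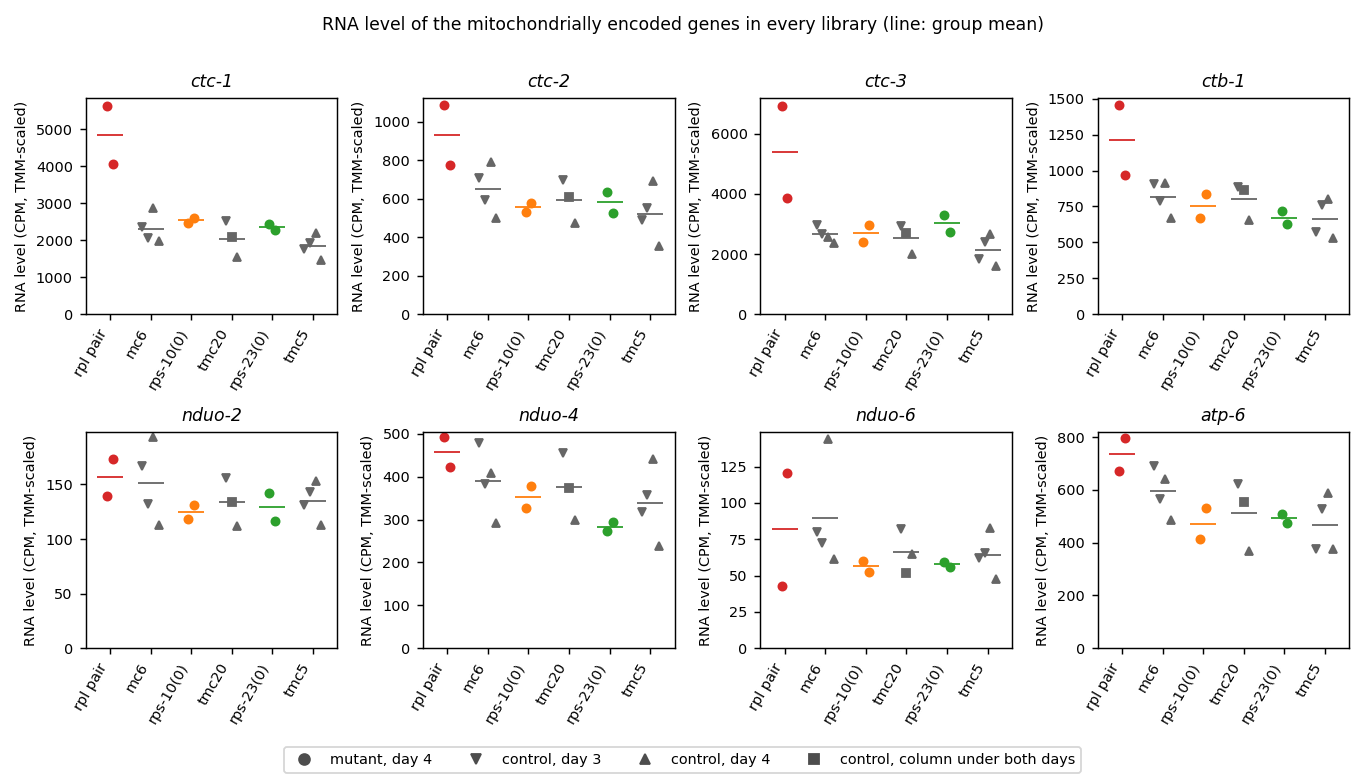
RNA level of the 8 members in each of 17 libraries, in CPM with TMM-scaled library sizes (vertical axes start at 0). Mutants stand left of the controls with the same balancer, symbols give the day, and lines are group means. ctc-1 in the rpl pair (5631 and 4045 CPM) lay above every control (1470 to 2871 CPM), while the nduo genes overlapped their controls.

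The first comparison asked whether RNA levels of the mitochondrial genes changed in the ribosomal protein mutants. In the rpl pair, RNA of the cytochrome c oxidase subunit ctc-1 rose about 2-fold, the complex IV subunit ctc-3 had a difference of similar size that missed the threshold, and the complex I genes overlapped their controls. None of the 8 passed the test in either rps mutant. Counts were fitted by edgeR's quasi-likelihood test over all genes with controls of both days together, and a gene was called at a Benjamini-Hochberg adjusted p under 0.05. All 8 members passed the filter on low counts. Whether mutant and control libraries overlapped is given below as a description. No share of all genes that separate in RNA is given, so a separation alone is not read as a result.

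ctc-1, the subunit that reduces oxygen, had 5631 and 4045 CPM in the rpl pair, against 2353, 2047, 2871 and 1964 CPM in the mc6 controls. Both mutant libraries were above all 4 controls. The log2 fold change was 1.07 ± 0.24 (SE, 95% interval 0.55 to 1.59), with an edgeR adjusted p of 0.0352. It was the 1 member called, beside 2.54% of 9276 genes called in this comparison in either direction and 1.87% called higher. Of all genes called, 173 of 236 were higher in the rpl pair, against 89 of 257 when library totals replaced TMM, a scaling that moved the median of all genes to -0.32 and ctc-1 to 0.77 (edgeR adjusted p = 0.0980).

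ctc-3, also of the oxidase core, had 6926 and 3856 CPM in the rpl pair, against 2981, 2680, 2578 and 2371 CPM in the mc6 controls. The groups did not overlap, but the mutant libraries lay far apart, and the log2 fold change of 1.02 ± 0.27 (SE) had an edgeR adjusted p of 0.0611. ctc-2, which receives electrons from cytochrome c, had 1087 and 776 CPM in the rpl pair, against 707, 595, 791 and 502 CPM in the mc6 controls. Here the second mutant library fell inside the range of the controls, and the log2 fold change of 0.52 ± 0.27 (SE) was not called (edgeR adjusted p = 0.305).

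ctb-1 had 1460 and 971 CPM in the rpl pair, against 909, 786, 913 and 668 CPM in the mc6 controls. The mutant libraries lay above the controls with the second close to them, at a log2 fold change of 0.57 ± 0.25 (SE, edgeR adjusted p = 0.232). atp-6 had 671 and 798 CPM in the rpl pair, against 689, 565, 640 and 484 CPM in the mc6 controls. These groups overlapped (log2 fold change 0.30, 95% interval -0.26 to 0.87).

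The complex I members did not separate from their controls. nduo-4 had 491 and 422 CPM in the rpl pair, against 478, 382, 409 and 292 CPM in the mc6 controls, at a log2 fold change of 0.23 (95% interval -0.33 to 0.79). nduo-2 had 139 and 173 CPM in the rpl pair, against 167, 132, 194 and 112.7 CPM in the mc6 controls, with a log2 fold change of 0.05 (95% interval -0.47 to 0.56). nduo-6 had 43.1 and 121 CPM in the rpl pair, against 79.9, 72.1, 144 and 61.6 CPM in the mc6 controls. Its log2 fold change was -0.12 (95% interval -0.98 to 0.74), and the mutant library with the highest ctc-3 had the lowest nduo-6 of all 17. The non-members nduo-3 and ndfl-4, both of complex I, had log2 fold changes of 0.22 and -0.07.

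The ctc-1 call held in 10 of 17 fits that each left out 1 library. Without the first library of the rpl pair the log2 fold change was 0.78 with an adjusted p of 0.390, and the call was also lost when any of 6 other libraries was left out (mc6 day 3 replicates 1 and 2, mc6 day 4 replicate 2, rps-10(0) replicates 1 and 2, tmc5 day 3 replicate 1, adjusted p 0.0521 to 0.0959). ctc-3 moved the same way, with a log2 fold change of 0.51 (adjusted p = 0.636) without the first rpl library and 1.35 (adjusted p = 0.0319) without the second, and DESeq2 called it (0.99, adjusted p = 0.0111). Stage and tissue markers moved with the groups. The summed level of 6 yolk protein genes was 4635 to 6828 CPM in the rpl pair, against 101380 to 104490 CPM in mc6 day 4 and 1752 to 14494 CPM in mc6 day 3 controls. The 8 germ line markers summed to 761 and 1164 CPM in the rpl pair, below all 4 mc6 controls (1206 to 2494 CPM). The 8 body wall muscle markers summed to 20945 and 27682 CPM in the rpl pair, against 7835 to 11580 CPM in mc6 day 4 and 20463 to 21721 CPM in mc6 day 3 controls. The part of these tissues in the ctc-1 difference was not tested. Against the day 3 controls alone the ctc-1 change was 1.14 (adjusted p = 0.0934) and against day 4 controls alone 0.97 (adjusted p = 0.0595), on either side of the value against both. In bulk RNA of whole animals, more cells rich in mitochondria and more RNA per cell cannot be told apart.

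In rps-10(0), ctc-1 had 2456 and 2608 CPM, against 2511, 2072 and 1547 CPM in the tmc20 controls. The groups overlapped, and the log2 fold change of 0.31 (95% interval -0.25 to 0.87) was the largest of the 8 in this mutant. The other 7 members ranged from -0.23 for nduo-6 to 0.08 for ctc-3. No member was called by edgeR or by DESeq2, 0 had an unadjusted p under 0.05, and 0.129% of 9276 genes were called.

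In rps-23(0), ctc-3 had 3313 and 2744 CPM, against 1847, 2387, 2680 and 1613 CPM in the tmc5 controls. Both mutant libraries were above the 4 controls, the second narrowly, and the log2 fold change was 0.51 (95% interval -0.08 to 1.09, edgeR adjusted p = 0.545). ctc-1 had 2434 and 2261 CPM in rps-23(0), against 1754, 1911, 2202 and 1470 CPM in the tmc5 controls. Its log2 fold change was 0.36 (95% interval -0.18 to 0.89, edgeR adjusted p = 0.695). nduo-4 was lowest of the 8, at -0.26 (95% interval -0.83 to 0.31). No member was called by edgeR or DESeq2, 0 had an unadjusted p under 0.05, and 0.625% of 9276 genes were called. This background of 58 genes was 7 without either rps-23(0) library, 155 without tmc20 day 4 replicate 1 and 157 by DESeq2.

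**Figure D2:**
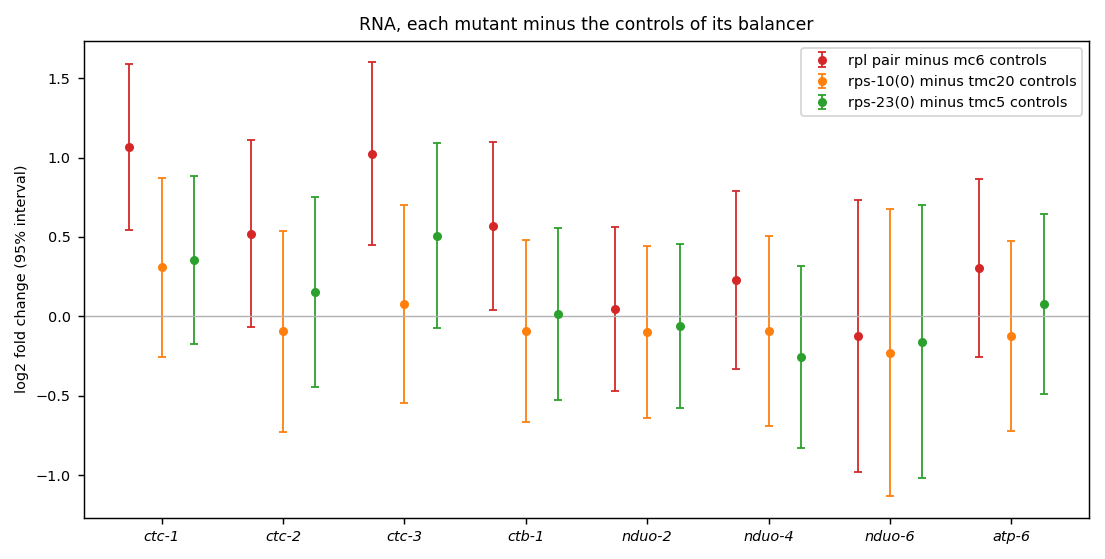
Log2 fold change of each member in RNA, for each mutant minus the controls of its own balancer, with 95% intervals from the edgeR fit. The intervals of ctc-1, ctc-3 and ctb-1 in the rpl pair lie above 0 before adjustment, while every interval of the rps mutants spans 0.

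The difference between the 3 mutant responses was tested directly. Unadjusted p-values of this edgeR test with 2 degrees of freedom ran from 0.0912 for ctc-1 and 0.0947 for ctc-3 to 0.983 for nduo-6, and no member was called (0 with an unadjusted p under 0.05), beside 0.0216% of 9276 genes. The responses of ctc-1 and ctc-3 in the rpl pair are thus not shown to differ from those in the other mutants.

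Ratios between members within a library do not depend on library size. The ratio of ctc-1 to nduo-4 counts, picked after the values were seen and given without a test, was 11.5 and 9.57 in the rpl pair, against 4.93, 5.36, 7.03 and 6.72 in the mc6 controls. It was 7.52 and 6.90 in rps-10(0), against 5.52, 5.57 and 5.17 in the tmc20 controls, and 8.94 and 7.67 in rps-23(0), against 5.52, 5.35, 4.99 and 6.16 in the tmc5 controls. For this ratio both libraries of each mutant were above all controls of the same balancer. The ratio of ctc-3 to nduo-4 followed the same order. It was 14.1 and 9.13 in the rpl pair, against 6.24 to 8.11 in mc6 controls. In rps-10(0) it was 7.34 and 7.87, against 6.44 to 7.25 in tmc20 controls, so the first mutant library was only just above them. In rps-23(0) it was 12.2 and 9.31, against 5.81 to 6.75 in tmc5 controls. The ratios of ctc-2, ctb-1 and atp-6 to nduo-4 separated less. All of these overlapped the tmc20 controls in rps-10(0). In the rpl pair those of ctc-2 and atp-6 overlapped the mc6 controls, and in rps-23(0) that of ctb-1 overlapped the tmc5 controls. The remaining ratios lay above their controls. No share of other gene pairs that separate this way is given, so these separations are not read as a result.

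The size of the difference varied with base composition among the mitochondrial genes. Over the 8 members the correlation between the A+T share of the coding sequence and the log2 fold change was r = -0.97 for the rpl pair, -0.79 for rps-10(0) and -0.84 for rps-23(0), and over the 10 mitochondrial genes with rows -0.96, -0.78 and -0.77. These are descriptions over genes that share libraries, and low A+T also marks the oxidase genes, so composition, complex and place on the genome cannot be told apart here. Library by library, relative to the mean of the controls, the slope over the members per 10 percentage points of A+T was -1.97 and -0.35 log2 units in the rpl pair, -0.39 and -0.59 in rps-10(0) and -0.55 and -0.47 in rps-23(0), against -0.37 to 0.35 in the 11 controls. The steep slope thus came from 1 rpl library, while the other lay within the range of the controls. Among 9260 nuclear genes the same correlation was close to 0 (0.02, 0.01 and -0.09 for the same mutants), but their exons reached only 71.9% A+T, with a median of 58.5%. The part of base composition in the mutant differences was not tested.

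**Figure D3:**
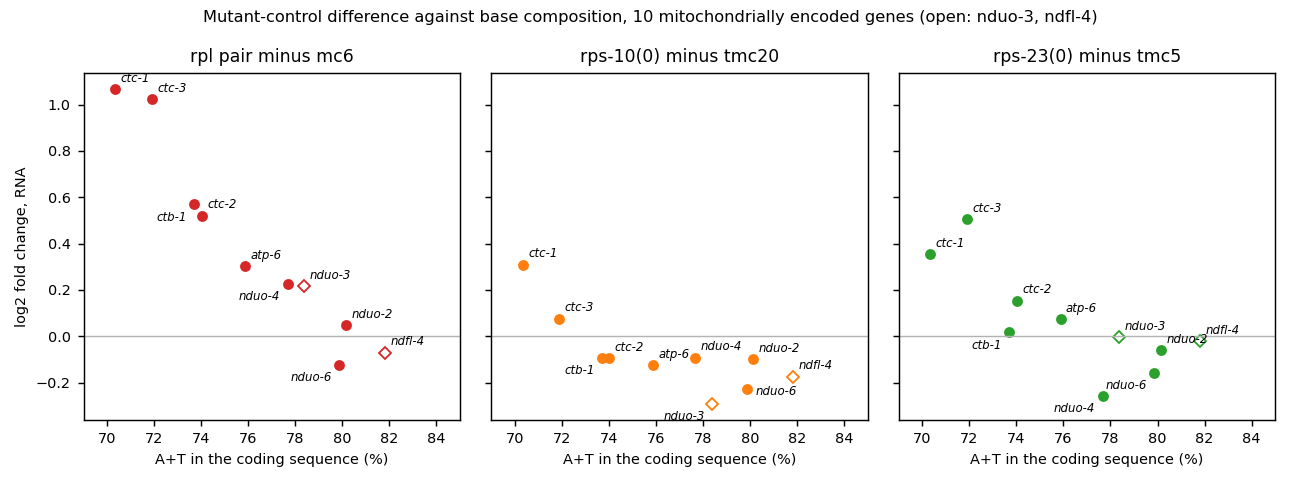
Log2 fold change in RNA against the A+T share of the coding sequence, for the 8 members (filled) and for nduo-3 and ndfl-4 (open), in each mutant. In the rpl pair the points descend from ctc-1 at 70.3% A+T and 1.07 to nduo-6 at 79.9% and -0.12.

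No listed nuclear-encoded respiratory chain gene was called in a mutant. The list also covered complex II and cytochrome c, which hold no member. Of 52 nuclear-encoded respiratory chain genes listed, 47 were tested, and edgeR and DESeq2 each called 0 in any of the 3 mutants, with 1, 0 and 0 at an unadjusted p under 0.05 (rpl pair, rps-10(0), rps-23(0), in this order below), beside 19.2%, 3.18% and 11.1% of all genes. Their median log2 fold changes were 0.09, -0.12 and 0.05, beside medians of -0.02, -0.05 and -0.08 over all genes and 0.41, -0.09 and 0.05 over the 8 members. The 7 nuclear subunits of complex IV had a median of 0.15 in the rpl pair, with a range of -0.06 to 0.74. Of 38 genes listed for upkeep and expression of the mitochondrial genome, such as the polymerase gene polg-1 and the RNA polymerase gene rpom-1, 29 were tested. edgeR called 0 of these in each mutant, with 3, 2 and 0 at an unadjusted p under 0.05, to be read against the same shares of all genes. Their medians were -0.10, -0.25 and -0.23. DESeq2 called 1, phb-2, a prohibitin of the inner membrane, in the rpl pair (log2 fold change -0.53, adjusted p = 0.0384, against -0.49 and 0.161 by edgeR).

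The second comparison asked how the members changed with age in the wild-type controls. No member was called between day 4 and day 3. Averaged over the 3 balancers, log2 fold changes (day 4 minus day 3) ran from -0.30 for nduo-4 to 0.03 for nduo-6, with 7 of 8 below 0 and a median of -0.19, beside -0.05 over all genes. The interval was -0.63 to 0.24 for ctc-1 and -0.76 to 0.16 for nduo-4 (95%), so falls within these intervals were not excluded. Neither edgeR nor DESeq2 called a member, 0 had an unadjusted p under 0.05, and 0.085% of 9416 genes were called by edgeR. That background hung on single tmc5 libraries: 27.0% of all genes had an unadjusted p under 0.05, DESeq2 called 427 genes, and edgeR called 2953 of 9405 without tmc5 day 3 replicate 1, 2642 of 9436 without tmc5 day 4 replicate 1 and 72 of 9406 without tmc5 day 4 replicate 2. No member was called in any of these.

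The balancers gave different pictures. In tmc20 the single day 4 library was below the single day 3 library for all 8 genes: ctc-1 had 1547 CPM at day 4, against 2511 CPM at day 3, and atp-6 had 368 CPM at day 4, against 621 CPM at day 3. The 8 log2 fold changes ran from -0.78 (atp-6) to -0.38 (nduo-6) with no call, and 0% of all genes were called in tmc20. In mc6, ctc-1 had 2871 and 1964 CPM at day 4, against 2353 and 2047 CPM at day 3, and the 8 changes ran from -0.28 (nduo-4) to 0.44 (nduo-6), with no call beside 0.0531% of genes. Here too the background moved with the tmc5 libraries, whose spread enters the shared fit: 1277 and 1279 genes were called without tmc5 day 3 replicate 1 or 2, 781 and 806 without tmc5 day 4 replicate 1 or 2, and 716 by DESeq2, again with no member. In tmc5, ctc-1 had 2202 and 1470 CPM at day 4, against 1754 and 1911 CPM at day 3, and the changes ran from -0.05 to 0.10 with no call beside 0% of genes. Within each balancer DESeq2 also called 0 members, and 0 had an unadjusted p under 0.05.

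The tmc5 controls did not follow their day labels. The summed level of the 6 yolk protein genes, made in the adult intestine, was 3410 and 84582 CPM in the tmc5 day 4 libraries, against 68243 and 1951 CPM in the tmc5 day 3 libraries, while the mc6 and tmc20 libraries of day 4 alone held 83791 to 104490 CPM, those of day 3 alone 1752 to 17300 CPM, and the tmc20 library deposited under both days 21898 CPM. The library with the most yolk RNA had the lowest ctc-1 of its balancer in tmc5 and tmc20. In tmc5 both yolk-rich libraries (1754 and 1470 CPM of ctc-1) were below both yolk-poor ones (1911 and 2202 CPM). In mc6 the day 4 libraries had nearly equal yolk RNA (104490 and 101380 CPM) but the highest and the lowest ctc-1 of that balancer (2871 and 1964 CPM). The part of stage in the tmc5 values was not tested. Without tmc5 the age effect averaged over mc6 and tmc20 again called no member. The difference in age effect between balancers gave no call (0% of 9416 genes), with unadjusted p-values of 0.261 for ctc-1 and 0.291 for atp-6.

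**Figure D4:**
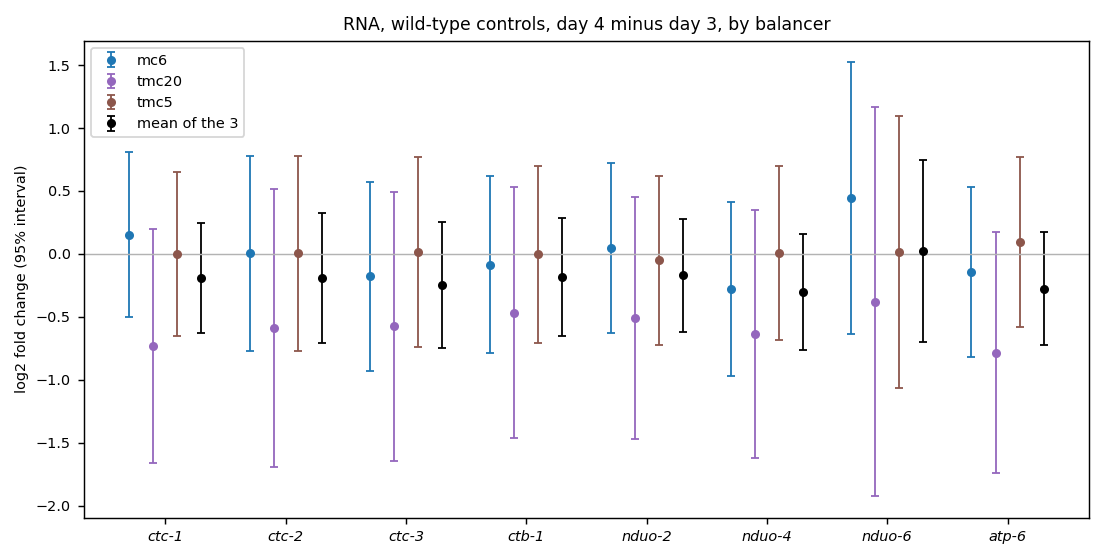
Log2 fold change of each member between day 4 and day 3 wild-type controls, for each balancer and for their mean, with 95% intervals from the edgeR fit. Every interval spans 0, and all 8 points of tmc20, which rests on 1 library a day, lie below 0.

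Over the same contrast the 47 nuclear-encoded respiratory chain genes had a median of -0.36, with 42 of 47 below 0. Of these 47, 9 had an unadjusted p under 0.05, a smaller share than the 27.0% of all genes, and edgeR and DESeq2 called 0. All 7 nuclear complex IV subunits were below 0 (-0.57 to -0.23). The 29 upkeep and expression genes had a median of 0.04 with 15 above 0, and both tools called 0 of them (2 at an unadjusted p under 0.05).

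The third comparison asked whether the balancers differed among wild-type controls. ctc-1 averaged 1834 ± 305 CPM in tmc5 (n = 4), 2043 ± 483 CPM in tmc20 (n = 3) and 2309 ± 410 CPM in mc6 (n = 4, SD), and atp-6 averaged 467 ± 108, 514 ± 131 and 595 ± 89.5 CPM. Both genes averaged lowest in tmc5 and highest in mc6, with ranges that overlapped. With both days weighted equally, the log2 difference of tmc5 minus mc6 was below 0 for 8 of 8 members, from -0.46 (nduo-6) to -0.17 (nduo-2), and that of tmc20 minus mc6 was below 0 for 8 of 8, from -0.31 (atp-6) to -0.07 (nduo-4). tmc20 minus tmc5 ran from -0.03 (nduo-2) to 0.21 (ctb-1). Medians over all genes were 0.09 for tmc5 minus mc6, -0.006 for tmc20 minus mc6 and -0.10 for tmc20 minus tmc5. These contrasts share their control groups and the members moved mostly together, so 8 of 8 is not 8 separate observations. The edgeR test over the 3 balancers called no member (smallest unadjusted p 0.264, for atp-6) and 0.0106% of 9416 genes, and none of the pairwise contrasts called a member in edgeR or DESeq2 or gave one an unadjusted p under 0.05, beside 0.0106% of genes for tmc5 minus mc6, 0.0106% for tmc20 minus mc6 and 0% for tmc20 minus tmc5. For ctc-1 the 95% interval of tmc5 minus mc6 was -0.80 to 0.13.

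Ribo-seq, which sequences the fragments that ribosomes protect, gave few counts for these genes. Pooled over 20 libraries and 66009 counts, the 8 members held 73 counts (exact 95% Poisson interval 57.2 to 91.8), a share of 0.111% (exact binomial interval 0.0867% to 0.139%), against 0.751% of RNA counts. The Ribo-seq total covers more genes than the RNA total, and over the genes with a row in both the Ribo-seq share was 0.118%. Intervals cover counting error only. ctc-1 gave 42 of the 73 counts, ctc-3 11, ctb-1 10, ctc-2 5, nduo-4 3, atp-6 2, and nduo-2 and nduo-6 none. A pooled count of 0 in 66009 allows a share of up to 0.00454% (3 counts, a one-sided limit at 95%, used for every count of 0), or 0.00559% by the two-sided exact interval. Per kilobase of transcript, ctc-1 had 26.2 pooled Ribo-seq counts and ctc-3 14.2, while in RNA ctc-3 had 97453 counts per kilobase and ctc-1 40327. Among the mutants ctc-1 had 3.12 Ribo-seq counts per kilobase and ctc-3 5.18, the order seen in RNA but from 5 and 4 counts, against 23.1 and 9.07 in the controls. The pooled order thus rested on the controls, and mc6 gave 28 of the 42 counts of ctc-1.

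The rpl mutants held few of these fragments and the mc6 controls most. The rpl-33(0) libraries had 0 and 1 counts of ctc-1 and the rpl-5(0) libraries 0 and 1, or 2 in all of 20139. The mc6 controls had 3 and 8 counts at day 4 and 8 and 9 counts at day 3, or 28 in all of 16068. As a share of each library, ctc-1 averaged 0.00741% ± 0.00930 in the 4 rpl mutant libraries and 0.180% ± 0.0732 in the 4 mc6 controls (SD), and no mutant library reached a control. The ratio of the pooled rates was 0.0570 (exact 95% interval 0.00658 to 0.226, from 2 and 28 counts), in the direction opposite to its RNA. An exact two-sided permutation test over libraries, added after the counts were seen, gave p = 0.0286, the smallest that 4 against 4 can give. ctc-1 was the 1 member with at least 10 counts here, and 28 of its counts came from the mc6 controls. This p is therefore given as a description only. The same test gave that p for 8.73% of 790 genes with at least 10 counts in these libraries. Benjamini-Hochberg adjustment gave 0.327 for ctc-1 and passed no gene. With no p below 0.0286, adjustment could pass a gene only if most genes tested reached that p. It therefore cannot decide whether ctc-1 differed. With no filter, edgeR gave an adjusted p of 0.0772 with TMM scaling and 0.00705 with library totals.

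The other controls held fewer as well. ctc-1 had 6 counts of 10282 in the tmc20 controls and 3 of 9425 in the tmc5 controls, with ratios to mc6 of 0.335 (0.113 to 0.824) and 0.183 (0.0355 to 0.591). Both gave an exact permutation p of 0.0286, beside 4.76% of 546 genes and 3.31% of 514 genes at that p, with adjusted values of 0.600 and 0.864. All 4 mc6 libraries thus lay above every library of the other balancers as well as of the rpl mutants, a separation that did not pass adjustment over genes. ctc-1 had 3 counts of 6405 in rps-10(0), a ratio of 0.803 to the tmc20 controls (0.130 to 3.76, exact permutation p = 0.733), and 0 of 3690 in rps-23(0), which allows a share of up to 0.0813% (0.0999% by the two-sided exact interval), against 3 in the tmc5 controls (exact permutation p = 0.467). With 2 libraries against 4, the smallest p is 0.0667.

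The 8 members together had 8 counts of 20139 in the rpl mutants, against 47 of 16068 in the mc6 controls (ratio 0.136, exact interval 0.0554 to 0.290), 4 of 6405 in rps-10(0), against 7 of 10282 in the tmc20 controls, and 2 of 3690 in rps-23(0), against 5 of 9425 in the tmc5 controls. Between ages, the members had 27 counts of 15937 in day 4 controls, against 32 of 19838 in day 3 controls (ratio 1.05, exact interval 0.605 to 1.81). The pooled Ribo-seq share relative to the pooled RNA share was 0.0341 in the rpl mutants (0.0147 to 0.0672) and 0.372 in the mc6 controls (0.274 to 0.495), with intervals from the Ribo-seq counts alone. Each share is over all genes of its own assay. Over the genes with a row in both, the Ribo-seq share was 0.0428% instead of 0.0397% in the rpl mutants and 0.313% instead of 0.293% in the mc6 controls.

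**Figure D5:**
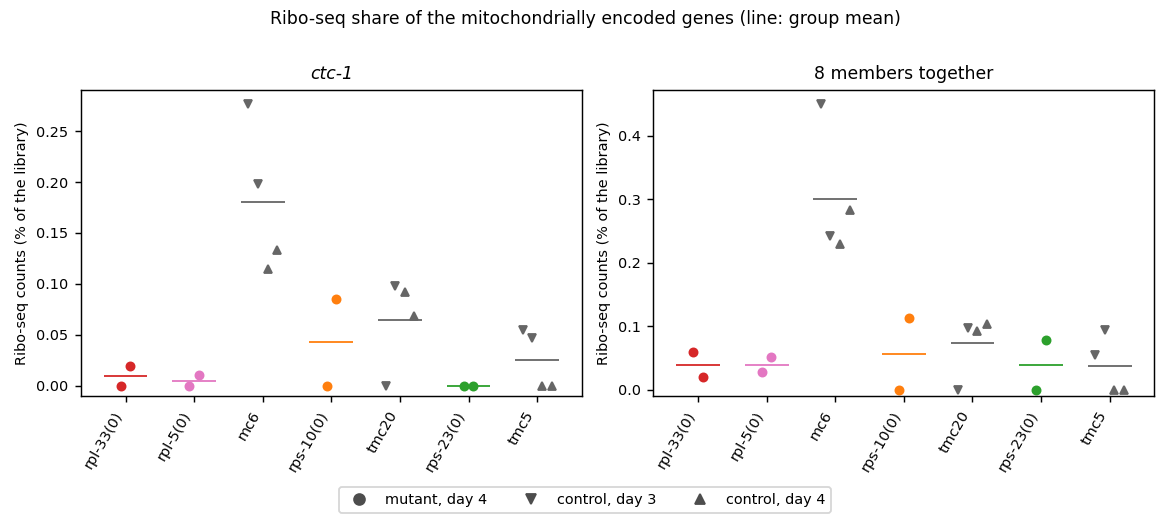
Percent of each Ribo-seq library's counts on ctc-1 (left) and on the 8 members together (right), with group means as lines; mutants stand left of the controls with the same balancer. All 4 mc6 controls (0.114% to 0.276% for ctc-1) lie above every other library.

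Translation efficiency, the Ribo-seq level relative to RNA, was fitted in 1 edgeR model of both assays. Only ctc-1 and ctc-3 of the 8 members passed the filter on low counts, among 271 genes. The fitted change for ctc-1 was -5.09 ± 1.19 (log2, SE) in rpl-5(0), with an adjusted p of 0.0585, and -4.16 ± 1.21 in rpl-33(0), with an adjusted p of 0.415. Both mutants used the same RNA columns, and each estimate rested on 1 Ribo-seq count in the mutant, so its size depends on the fit's handling of zeros. The unadjusted p-values of the edgeR fit were 0.000216 and 0.00189. ctc-3 had a fitted change of -1.19 ± 0.96 in rpl-5(0) (adjusted p = 0.994), and in each of the other 3 mutants its mutant or control libraries held no Ribo-seq count, so no fold is given. No change was called for either gene in any mutant (0% of 271 genes).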

How the data were processed

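Whole-animal RNA-seq and Ribo-seq counts were taken as deposited. Per the labels and the study's methods, the authors split lysates for both assays, used RiboFlow with WBcel235 transcripts for mapping, and tabulated raw counts per gene. 6 Ribo-seq columns, each identical to another, were not used. RNA columns deposited more than once were counted once. Genes were kept by filterByExpr, scaled by TMM and fitted in edgeR 4.0.16 (R 4.3.3), once with a coefficient per genotype and day (age, balancers) and once per genotype (mutants). p-values were adjusted by Benjamini-Hochberg over all genes tested. DESeq2 1.42.0, other scalings and filters, subsets of controls and omission of each library were alternatives. Sequences and lengths came from the WBcel235 reference. Fits were tested on simulated counts. All 8 members with rows are named, and for gene lists up to 4 genes called by edgeR each way were to be named, of which there were none; phb-2, called by DESeq2, was named after its values were seen. Members and lists were chosen with earlier results of these data known. The permutation test of ctc-1, the ratios and the composition values were added after the counts were seen. Depth limits Ribo-seq most, with a median of 2902.5 counts a library.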

Additional observations from a re-analysis of the deposited data

Results flagged for a closer look

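Control groups of 4 libraries were examined for a library far from the others in 22 checks, by gene or by the members together, and 1 was found. By chance about 1 check in 20 singles out a library, but these checks share libraries and genes and are not independent. In the tmc20 Ribo-seq controls, day 3 replicate 1 held 0% of its counts on the 8 members, while the other 3 held 0.0925% to 0.103%. The library had 3217 counts in all, so a count of 0 allows a share of up to 0.0933% (3 counts, one-sided) or 0.115% (two-sided exact interval), and the two-sided limit covers the other 3.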

How the results depend on the processing

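Of 2227 values recomputed under the alternatives, some were counts of members called or Ribo-seq shares, which have no direction. None of the fold changes was counted as reversed. A sign change was not counted when neither value was called and at least 1 of them was smaller than its SE. There were 119 such sign changes. The number of members called over the 3 mutants, 1 (ctc-1 in the rpl pair), was 0 with library totals, with day 3 controls only, with day 4 controls only and with each mutant fitted with its own controls only, and 2 (ctc-1 and ctc-3) with the DESeq2 Wald test. Leaving out each library gave 0 to 2. In the columns whose headings carry a replicate number, the fit with the replicate block called 0 members and the same columns without the block 0, an alternative added after seeing the data, and same-numbered libraries did not deviate together in most pairs of groups (r from -0.08 to 0.05, apart from 0.66 for tmc20 and tmc5 controls). Over all genes, the 236 called in the rpl pair became 568 by DESeq2, 82 with day 3 controls only, 2079 with day 4 controls only, 17 with its own controls only, 2 in the numbered columns and 0 with the block; leaving out each library gave 30 (without the first rpl library) to 304. Leaving out each library gave 2 to 13 for rps-10(0), with 34 by DESeq2 (12 as reported), 7 to 155 for rps-23(0) (58 as reported) and 3 to 2953 for age (8 as reported). The ctc-1 change in the rpl pair kept its sign throughout, from 0.77 with library totals (median of all genes -0.32) to 1.25. Counts of members called for age, balancers, mutant differences and translation efficiency stayed at 0 under all alternatives run. The pooled Ribo-seq share of the members ran from 0% to 0.114% in rps-10(0) and from 0% to 0.0787% in rps-23(0) when either library was left out. Omitting both day 4 RNA libraries labelled L4 together was not run, because the tmc5 columns do not show which one is so labelled. Leaving out each library covered every candidate singly. The cause of these shifts was not tested.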
